A study of Oryza sativa with 8 samples.

Results

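The genes described here lie at the ends of rice chromosomes 11 and 12 that carry a shared duplication. They were chosen by position alone: every row of the deposited expression table on chromosome 11 or 12 whose locus started before 2.5 Mb was taken, and values of rows under one name were added up. This gave 642 of the 30154 gene names in the table, 310 on the chromosome 11 end and 332 on the chromosome 12 end. A few rows set aside beforehand are not analysed here. The 642 names came from 884 rows at 461 loci, and 110 of these loci held several gene names, up to 19 at a locus on chromosome 11.

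The study asked how loss of RNA polymerase IV alters gene expression in rice reproductive tissue. Oryza sativa plants of the Indica cultivar Pusa Basmati 1 (PB1) were grown in a greenhouse kept near 28 °C. The groups were nrpd1 knockdown anther, WT anther, nrpd1 knockdown panicle and WT panicle. Anthers were taken before they dehisced and panicles before they emerged. NRPD1 is the largest subunit of RNA polymerase IV. The labels give neither the knockdown construct nor the number of independent lines, and they list 2 libraries in each of the 4 groups. The table holds 1 FPKM value per group (fragments per transcript kilobase, scaled by how many fragments mapped), so no difference below has a replicate error or a p-value. The targeted gene was not checked, because no ID in the table is paired with its name.

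RNA polymerase IV is a plant polymerase whose transcripts are turned into small RNAs that guide DNA methylation to transposons and other repeats. The duplicated ends of chromosomes 11 and 12 hold much of the same genes in the same order, and they are known for copies that have stayed unusually alike, in part through gene conversion between the chromosomes. Such copies can share sequencing reads. How the authors divided shared reads is not given in the sources used here. Equal values of a pair of copies and low values of either copy are therefore uncertain.

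Over the whole table the FPKM columns summed to 341703 in knockdown anther, 636692 in WT anther, 428187 in knockdown panicle and 382488 in WT panicle, and the number of reads behind them is not known. Tissue identity was looked at through gene symbols picked after their values were seen. PLIM2B, a LIM-domain protein of pollen, had 71.5 FPKM in knockdown anther and 541 FPKM in WT anther. It had 0.0372 FPKM in knockdown panicle and 31.8 FPKM in WT panicle. MST5, a sugar transporter of anthers, had 20.3, 63.1, 0 and 5.84 FPKM in knockdown anther, WT anther, knockdown panicle and WT panicle. MST8, another anther sugar transporter, stayed at or below 0.586 FPKM in every column. PORB, an enzyme of chlorophyll synthesis in green tissue, had 1.19, 5.08, 39.5 and 81.1 FPKM in the same order. Within each genotype PLIM2B and MST5 were thus higher in anther and PORB in panicle, while MST8 marked neither tissue. PLIM2B and MST5 were also lower in the knockdown of both tissues. In whole tissue, fewer cells of a type and less RNA per cell cannot be told apart.

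Detection was described first. At least 1 FPKM in at least 1 column was reached by 334 of the 642 members (52.0%), against 65.2% of the genes on the rest of chromosomes 11 and 12 and 68.0% on the other chromosomes; these shares were not tested against each other. The share was 48.4% on the chromosome 11 end and 55.4% on the chromosome 12 end. It was lowest in the first 0.5 Mb of each chromosome, at 34.4% on chromosome 11 and 42.2% on chromosome 12, against 58.2% and 62% between 2 and 2.5 Mb. In every column, 215 members (33.5%) reached 1 FPKM, against 44.2% of all genes. By column, 273 members reached it in knockdown anther and 258 in WT anther, then 284 in knockdown panicle and 282 in WT panicle.

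Much of the expression came from a few genes. The 10 highest members of the chromosome 11 end made up 68.7% of that end's summed FPKM in knockdown anther, 64.6% in WT anther, 62.1% in knockdown panicle and 69.0% in WT panicle. For the chromosome 12 end the shares were 48.1%, 55.8%, 50.5% and 50.8% in the same order. By column, 7, 13, 13 and 12 of the 642 members reached 100 FPKM in the same order. Of all 30154 genes, 505, 997, 720 and 590 did so. Of the 22 members that reached 100 FPKM in any column, 11 lay on each chromosome and 9 started between 0.5 and 1 Mb. This stretch had 64 of the 310 members on chromosome 11 and 78 of the 332 on chromosome 12. That stretch alone held 55.6% of the chromosome 11 end's FPKM in knockdown anther and 47.5% in WT anther. In panicle it held 24.3% in the knockdown and 39.1% in WT.

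The table gives these IDs no gene name, so they are listed by level only. The most abundant member, Os11g0116000 (chromosome 11, 715427 to 716515, build not given in the sources used here), had 858 FPKM in knockdown anther, 797 FPKM in WT anther, 223 FPKM in knockdown panicle and 296 FPKM in WT panicle. It was therefore an anther-high gene in both genotypes. Os11g0147800 ran the other way, with 120 and 96.0 FPKM in knockdown and WT anther and 505 and 490 FPKM in knockdown and WT panicle. On chromosome 12, Os12g0115000 was likewise panicle-high, with 27.5 and 48.1 FPKM in knockdown and WT anther and 414 and 273 FPKM in knockdown and WT panicle.

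Only 4 members carry a gene symbol. D53 on chromosome 11 (194132 to 199372), the repressor of strigolactone signalling that is degraded when the hormone is perceived, had 3.47 FPKM in knockdown anther, 2.60 FPKM in WT anther, 7.72 FPKM in knockdown panicle and 5.49 FPKM in WT panicle. It was higher in panicle than in anther in both genotypes, and the knockdown differed from WT by 0.31 in anther and 0.43 in panicle on the log2(FPKM + 1) scale. LTP110-A, a lipid transfer protein, is listed with a row on each end and summed to 0.215, 0.342, 4.23 and 0.0565 FPKM in knockdown anther, WT anther, knockdown panicle and WT panicle. Its row on chromosome 12 (727801 to 728559) carried nearly all of this, with 4.23 FPKM in knockdown panicle against 0 in the chromosome 11 row, and it was the panicle knockdown that stood apart. RAPTOR2 on chromosome 11 and RAPTOR1 on chromosome 12, subunits of the complex around the growth kinase TOR, are listed at 0.0523 FPKM or less in all 4 columns.

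Gene pairs across the chromosomes were then set up to compare the copies. No sequence was available, so pairs rest on position and size. Loci qualified when the shorter span was at least 0.95 of the longer and the starts lay within 300 kb of each other. Of 510 such locus pairs, the best collinear chain kept 65, and 44 of these had 1 gene name at each locus. Of the 44, 23 had a neighbouring pair in the chain within 3 kb in offset, and these are called close pairs. Homology was not shown for any pair, and some pairs may join genes that are not copies.

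Levels under 1 FPKM in every column were shared by the copies or lay on the chromosome 11 side. Whether reads shared by copies were lost or given to a single copy was not tested. In 14 of the 44 pairs neither copy reached 1 FPKM in any column, and in 20 both did. In the other 10 only the chromosome 12 copy did so, and in 0 pairs only the chromosome 11 copy. Among the close pairs these numbers were 10, 8, 5 and 0.

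Where a pair was expressed, the counts leaned towards a higher chromosome 12 copy. The shares of differing copies were not set against pairs of unrelated genes. A pair was compared in a column where either copy reached 1 FPKM, and a copy counted as higher at a difference of at least 1 in log2(FPKM + 1). In knockdown anther the chromosome 11 copy was higher in 4 and the chromosome 12 copy in 9 of 24 pairs, so 54.2% differed. In WT anther the numbers were 3 and 10 of 23 pairs (56.5%). In knockdown panicle they were 5 and 9 of 26 pairs (53.8%), and in WT panicle 5 and 11 of 27 pairs (59.3%). The median difference, chromosome 11 copy minus chromosome 12 copy, was -0.26, -0.65, -0.59 and -0.54 in the same order of columns. Among the close pairs the copies differed by at least 1 in 6 of 11 in knockdown anther (54.5%), 6 of 10 in WT anther (60.0%), 4 of 10 in knockdown panicle (40.0%) and 6 of 12 in WT panicle (50.0%). In each of these columns the chromosome 11 copy was the higher in 1 close pair and the chromosome 12 copy in the rest. The lean also held with a span ratio of at least 0.9, with 7 against 14, 6 against 14, 7 against 16 and 5 against 13 pairs in the same order of columns. It did not hold under the strictest pairing: with a span ratio of at least 0.99 the counts were 5 and 5 of 14 pairs in knockdown anther and 5 and 4 of 14 in WT anther, and the WT anther median turned to 0.01. They were 4 and 4 of 14 pairs in knockdown panicle and 6 and 5 of 15 in WT panicle.

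**Figure D1:**
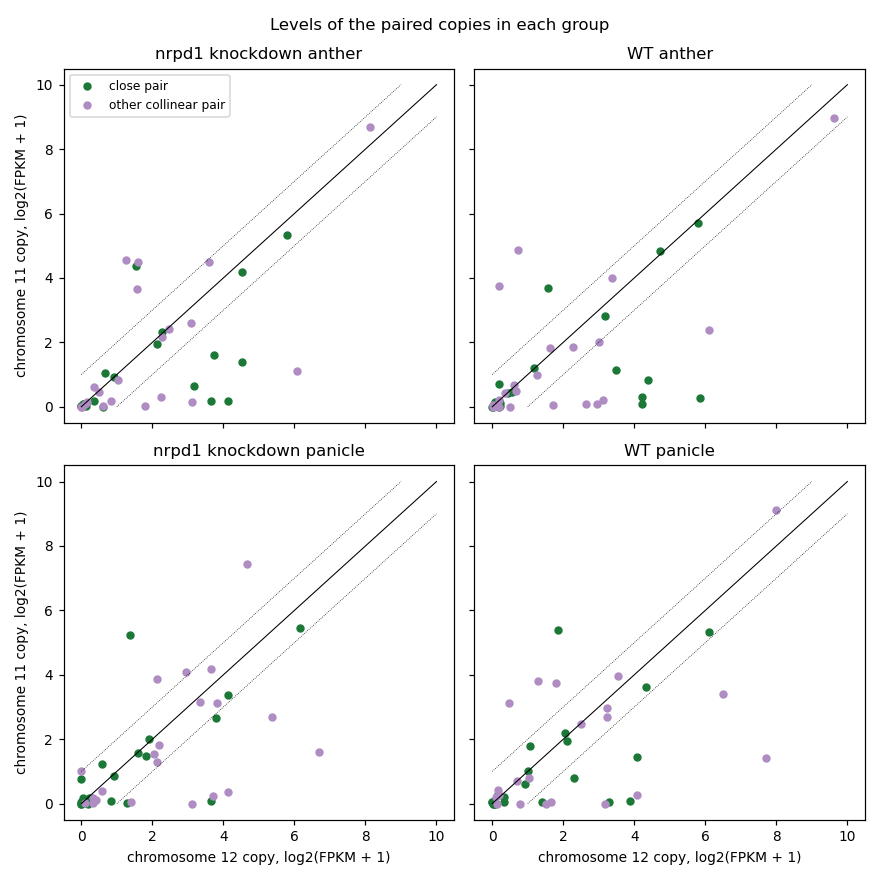
Level of the chromosome 11 copy (vertical) against that of the chromosome 12 copy (horizontal), both as log2(FPKM + 1), in each of the 4 columns; each point is a gene pair, close pairs are green and the dotted lines mark a difference of 1. Points below the solid diagonal have the higher chromosome 12 copy, which held by at least 1 for 9 pairs in knockdown anther and 10 pairs in WT anther.

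The order of the copies was then followed over tissues and genotypes. This was done for the 30 pairs with a copy at 1 FPKM or more in any column. Of these, the chromosome 12 copy was higher by at least 1 in all 4 columns in 6 pairs and the chromosome 11 copy in 3. In 12 of the 30 the copies stayed within 1 in every column. In 0 pairs did the order turn past 1 between columns. Across the 44 pairs, Pearson's r between the log2 levels of the copies was 0.65 in knockdown anther, 0.62 in WT anther, 0.62 in knockdown panicle and 0.62 in WT panicle. These 44 include the 14 pairs with neither copy at 1 FPKM in any column, and r without them was not calculated. The points of a column share that column's scaling, so these are descriptions.

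In some close pairs the chromosome 11 copy was listed at a very low level. Os11g0141000 (1894737 to 1898886) had 0.133, 0.0616, 0.0673 and 0.0541 FPKM in knockdown anther, WT anther, knockdown panicle and WT panicle. Its partner Os12g0137500 (1817588 to 1821864) had 16.6, 17.5, 11.7 and 13.6 FPKM. The chromosome 12 copy was thus high and steady everywhere, with copy differences between -4.13 and -3.57.

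Os11g0151400 had 0.125, 0.247, 0.0221 and 0.0386 FPKM in the same order, against 11.5, 17.6, 1.45 and 8.83 FPKM for Os12g0150200. Here the chromosome 12 copy was lowest in knockdown panicle. The pair Os11g0150450 and Os12g0147500 was less lopsided. The chromosome 11 copy had 1.63, 0.767, 5.38 and 1.71 FPKM, and the chromosome 12 copy 21.8, 20.1, 12.9 and 15.8 FPKM.

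Os11g0131900 (1453518 to 1460662) was the close pair with the order reversed. It had 19.5 FPKM in knockdown anther, 11.9 FPKM in WT anther, 36.8 FPKM in knockdown panicle and 40.5 FPKM in WT panicle. Its partner Os12g0128800 stayed between 1.601 and 2.63 FPKM, a copy difference of 2.12 to 3.86 on the log2 scale.

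Other close pairs were balanced. Os11g0151300 had 39.6, 51.3, 42.4 and 38.8 FPKM in knockdown anther, WT anther, knockdown panicle and WT panicle, and Os12g0150100 had 54.4, 54.0, 70.6 and 68.2 FPKM. Os11g0131700 had 17.2, 27.5, 9.26 and 11.2 FPKM, and Os12g0128600 had 21.8, 25.7, 16.7 and 19.3 FPKM. Os11g0130300 and Os12g0127100 were within 0.06 of each other in every column on the log2 scale, at levels of about 1 FPKM or less.

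**Figure D2:**
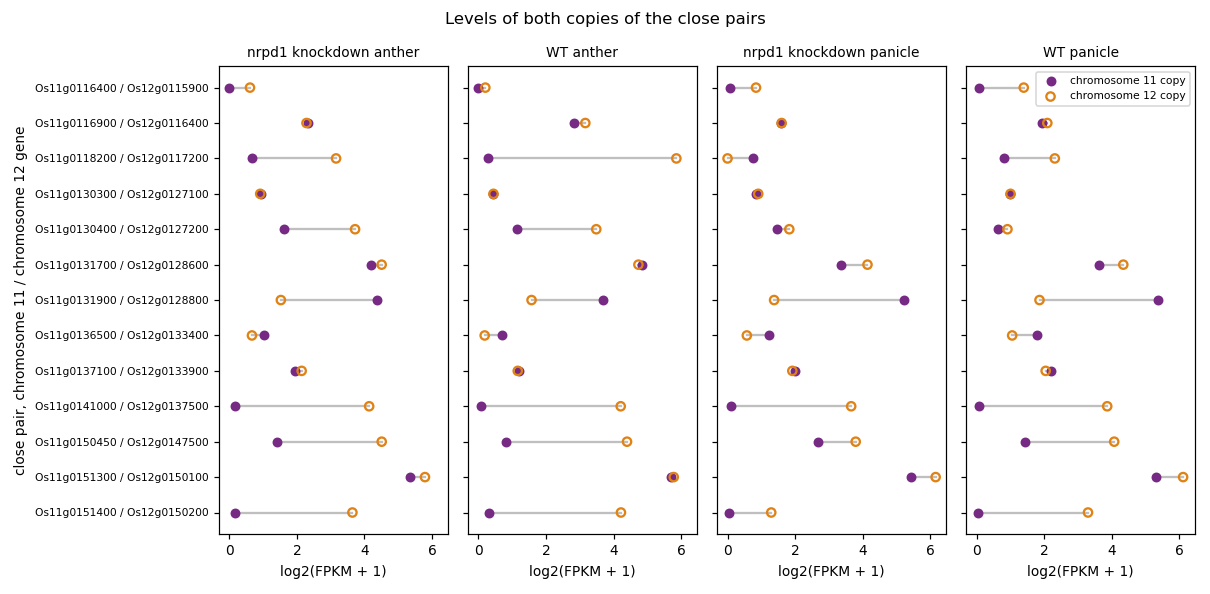
Levels of both copies, as log2(FPKM + 1), in the 13 close pairs with a copy at 1 FPKM or more in any column, ordered by position on chromosome 11 from top to bottom; filled points are chromosome 11 copies and open points chromosome 12 copies. Long bars for Os11g0141000 and Os11g0131900 keep their direction in all 4 columns, while the bar of Os11g0118200 is long in the anther columns.

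Among pairs without a close neighbour, the widest gap in WT panicle was in Os11g0115350 and Os12g0115300. The chromosome 11 copy had 0.123, 0.0319, 5.50 and 1.69 FPKM in knockdown anther, WT anther, knockdown panicle and WT panicle, against 0.781, 2.28, 40.1 and 209 FPKM for the chromosome 12 copy. Os11g0127800 had 1.15, 4.27, 2.04 and 9.52 FPKM, against 66.9, 67.3, 102 and 90.2 FPKM for Os12g0124200. Os11g0123400 stayed at or below 0.222 FPKM, while Os12g0121400 had 3.75, 7.77, 12.1 and 15.9 FPKM. In the pair Os11g0133900 and Os12g0130900 the chromosome 11 copy was the higher, with 11.6, 28.4, 13.8 and 12.3 FPKM against 1.96, 0.654, 3.38 and 2.48 FPKM. D53 and its positional partner Os12g0104300 lay close together, the partner having 3.82, 3.87, 13.0 and 8.42 FPKM in the same order.

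The tissues were compared as a scale for these levels. Between WT anther and WT panicle, 307 members were compared, of which 49 were higher in anther by at least 1 and 57 lower, together 34.5%, against 38.5% of all genes (20.4% higher, 18.1% lower). On the chromosome 11 end 29 were higher and 27 lower of 138, and on the chromosome 12 end 20 were higher and 30 lower of 169. Between knockdown anther and knockdown panicle, 50 were higher and 71 lower of 318 members, 38.1% against 36.5% of all genes (14.0% higher, 22.5% lower). With every column scaled to an equal total, the WT split turned to 23 higher and 98 lower in anther, so it depends on the scaling. With a mean of at least 5 FPKM it was 35 higher and 19 lower, and the split of all genes under this filter was not counted.

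In anther, members beyond the threshold lay in both directions. Of 286 members compared, 25 were higher (8.74%) and 34 lower (11.9%) in knockdown anther than in WT anther by at least 1 in log2(FPKM + 1), against 7.37% and 17.6% of all 17943 genes compared. The median difference was 0.02 for the members and -0.15 for all genes. On the chromosome 11 end 12 were higher and 19 lower of 132, and on the chromosome 12 end 13 were higher and 15 lower of 154. The split depends on the scaling: 42.4% of called members were higher as deposited, 55.2% after quantile normalization, and 88.6% (93 higher, 12 lower) with equal totals, which moves the median of all genes to 0.62. With a mean of at least 5 FPKM the split was 9 higher and 26 lower, and the split of all genes under this filter was not counted.

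The largest differences upward in anther were on both chromosomes. Os12g0137400 (1802671 to 1816332) had 20.1 FPKM in knockdown anther and 0.421 FPKM in WT anther, a difference of 3.89, at a locus of 3 gene names. Os11g0126900 had 21.4 FPKM in knockdown anther and 0.982 FPKM in WT anther (3.50), and Os11g0148700 had 68.0 FPKM against 5.74 FPKM (3.35). In Os12g0137400 and Os11g0148700 knockdown anther was the highest of the 4 columns, and their panicle differences were -0.42 and -0.31.

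The largest differences downward were in genes that WT anther expressed well above WT panicle. Os12g0129100 had 1.67 FPKM in knockdown anther and 25.7 FPKM in WT anther (-3.32). Os11g0132100 had 1.95 FPKM against 24.7 FPKM (-3.13), and Os11g0153200 had 19.0 FPKM against 135 FPKM (-2.76). Os12g0117200 had 7.94 FPKM against 57.1 FPKM (-2.70). Each of these 4 was also lower in knockdown panicle than in WT panicle, by -1.89, -1.07, -2.80 and -2.31. PLIM2B and MST5 were lower in the same columns, as given above, and their part in these differences was not tested.

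In panicle, too, both directions were present. Of 312 members compared, 44 were higher (14.1%) and 37 lower (11.9%) in knockdown panicle than in WT panicle, against 13.2% and 10.7% of all 18655 genes compared. The median difference was -0.02 for the members and -0.03 for all genes. The chromosome 12 end had 28 higher and 19 lower of 174 members, and the chromosome 11 end 16 higher and 18 lower of 138. The 16 include LTP110-A, summed under chromosome 11, whose difference lies in its chromosome 12 row. With a mean of at least 5 FPKM the panicle split turned to 11 higher and 24 lower. The split of all genes under this filter was not counted, so the turn cannot be tied to the ends.

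The widest difference upward in panicle was in Os11g0150400 (2343366 to 2344855), with 144 FPKM in knockdown panicle and 4.98 FPKM in WT panicle (4.60). In anther it had 4.38 FPKM in the knockdown and 1.90 FPKM in WT. Os11g0113100 had 11.96 FPKM in knockdown panicle and 0.227 FPKM in WT panicle (3.40), but its locus holds 19 gene names. Os12g0149000 had 8.18 FPKM against 0.503 FPKM (2.61), and Os12g0106300 had 16.6 FPKM against 2.12 FPKM (2.495).

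The 4 widest differences downward in panicle lay between 0.58 and 0.77 Mb, but members around them went in both directions. Between 0.5 and 1 Mb, 8 members were higher and 5 lower of 29 compared on chromosome 11. On chromosome 12, 10 were higher and 9 lower of 44. Os11g0112900, which shares the locus of 19 names, had 0.0847 FPKM in knockdown panicle and 18.8 FPKM in WT panicle (-4.19). Os12g0115150 had 9.83 FPKM against 147 FPKM (-3.77), Os12g0113700 had 0.101 FPKM against 13.8 FPKM (-3.75), and Os12g0115500 had 24.2 FPKM against 252 FPKM (-3.32). The loci of Os12g0115150 and Os12g0113700 hold 2 and 3 gene names. The locus of 19 names also holds Os11g0113100, which was higher in knockdown panicle as given above. Some other genes of this stretch were not lower: Os12g0114500 was higher in knockdown panicle, with 117 FPKM against 36.3 FPKM in WT panicle (1.67), and Os12g0115000, 733152 to 734107, had 414 FPKM against 273 FPKM (0.60, under the threshold). PLIM2B and MST5 were also lower in knockdown panicle, and their part in these differences was not tested.

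**Figure D3:**
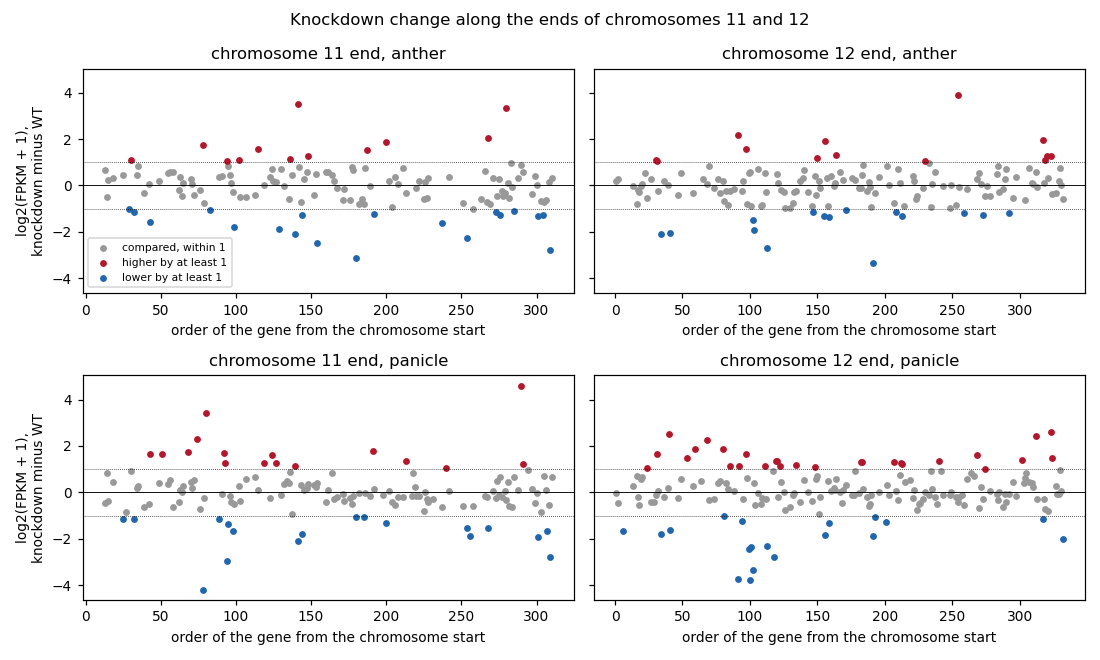
Difference between knockdown and WT in log2(FPKM + 1), for anther and panicle, against the order of each compared member from the chromosome's start, for the ends of chromosomes 11 and 12. Red points are higher and blue points lower by at least 1; the chromosome 11 end has 12 higher and 19 lower in anther and 16 higher and 18 lower in panicle, LTP110-A among the 16 although its difference lies in its chromosome 12 row.

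The copies of a pair were then compared in their knockdown differences. In anther, 16 pairs had both copies compared. In 12 of these the copies had the same sign, in 11 neither copy was past 1, and in 0 were both copies past 1. The chromosome 11 copy alone was past 1 in 3 pairs and the chromosome 12 copy alone in 2. The copies' differences lay at least 1 apart in 4 pairs, and the median gap was 0.40. The widest of these gaps, 3.17, was in Os11g0126900 and Os12g0123800. Whether these are copies was not tested, and Os11g0126900 has a counterpart of alike profile elsewhere, described below. In panicle, 19 pairs had both copies compared, 16 with the same sign and 12 with neither copy past 1. There, both copies were lower in 1 pair, they were past 1 in opposite directions in 1 pair, and the chromosome 11 copy alone was past 1 in 2 and the chromosome 12 copy alone in 3. The gap was at least 1 in 5 pairs, and its median was 0.18. Pairs with only 1 copy compared, 9 in anther and 10 in panicle, are left out here.

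Neighbours on the same chromosome served as a comparison, with no test. Each pair member was set beside the next pair member along its own chromosome, where both were compared. The median gap was 0.91 over 20 such neighbours in anther and 0.90 over 28 in panicle. Neighbours include members whose own partner was not compared, while the gap between copies leaves those pairs out. The gaps of copies and of neighbours thus rest on unlike sets of genes. The sign was shared by 6 of the 20 and 14 of the 28. Over copies, Pearson's r was 0.27 and Spearman's rho 0.54 in anther (16 pairs), and 0.35 and 0.42 in panicle (19 pairs). Copies share a column and may share reads, so these values describe the table only.

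The close pairs gave fewer values. Their median gap was 0.39 in anther and 0.08 in panicle, with the same sign in 5 of 7 and 7 of 8 pairs. For neighbours within the close pairs it was 0.52 over 10 in anther and 0.43 over 13 in panicle. Of these neighbours, 4 of the 10 and 8 of the 13 shared the sign. In anther 7 close pairs had both copies compared, and in 0 of them did the differences lie 1 apart. In panicle 1 of 8 did. This was Os11g0150450 and Os12g0147500, where the chromosome 11 copy had 5.38 FPKM in knockdown panicle and 1.71 FPKM in WT panicle (1.24), while the chromosome 12 copy had 12.9 FPKM and 15.8 FPKM (-0.28). Close pairs with only 1 copy compared, 4 in anther and 5 in panicle, are left out of these counts. Among those left out, Os11g0118200 and Os12g0117200 lay 3.08 apart in anther and 2.26 in panicle. Os11g0151400 and Os12g0150200 lay 1.98 apart in panicle, and the other gaps left out were under 1.

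The pair in which both copies were lower in panicle was the abundant pair Os11g0116200 and Os12g0115500. The chromosome 11 copy (722932 to 726970) had 409 FPKM in knockdown anther and 501 FPKM in WT anther. In panicle it had 172 FPKM in the knockdown and 555 FPKM in WT panicle. The chromosome 12 copy (760837 to 765002) had 279 FPKM against 789 FPKM in anther and 24.2 FPKM against 252 FPKM in panicle. In panicle the differences were -1.68 on chromosome 11 and -3.32 on chromosome 12, 1.64 apart, and in anther they were -0.29 and -1.50, 1.20 apart. The anther difference of Os12g0115500 was -0.15 once columns were quantile normalized and -0.60 at equal totals, under the threshold in both cases. The pair with opposite directions was Os11g0115350 and Os12g0115300, at 1.27 and -2.35.

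Other pairs had a single copy past 1. Os12g0117200, the gene with 57.1 FPKM in WT anther, is paired with Os11g0118200, which had 0.579 FPKM in knockdown anther and 0.214 FPKM in WT anther. Its panicle values were 0.688 and 0.747 FPKM, so it reached 1 FPKM in no column. Os11g0127800 was lower in both knockdown tissues (-1.29 in anther, -1.79 in panicle), while its partner Os12g0124200 differed by -0.01 and 0.17. Os11g0133900 was lower in knockdown anther (-1.23) and Os12g0130900 differed by 0.84 there.

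**Figure D4:**
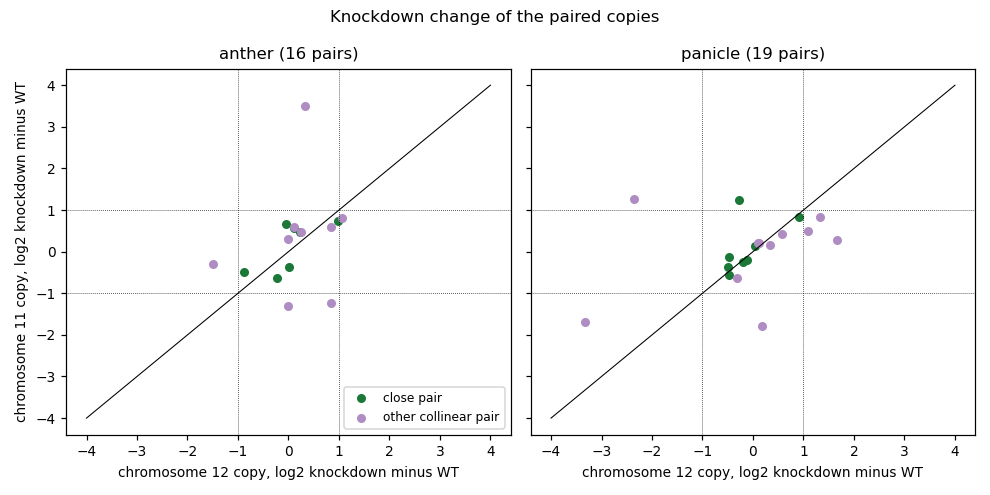
Knockdown minus WT difference of the chromosome 11 copy (vertical) against that of the chromosome 12 copy (horizontal), in log2(FPKM + 1), for anther (16 pairs) and panicle (19 pairs) with both copies compared; close pairs are green. Of the pairs shown, 4 in anther and 5 in panicle lie at least 1 from the diagonal, and no close pair shown does so in anther. Pairs with only 1 copy compared are not shown.

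Across the tissues, 26 members were past 1 in both. Among them 3 were higher in both knockdown tissues, 12 lower in both, 8 higher in knockdown anther but lower in knockdown panicle, and 3 the other way round. The 8 are 32% of the members higher in anther and 21.6% of those lower in panicle. Over all genes the same class held 129 genes, 9.75% and 6.48% of the matching lists. The 12 lower in both are 35.3% of the members lower in anther and 32.4% of those lower in panicle, against 32.0% and 50.9% over all genes. The 3 higher in both are 12% and 6.82% of the lists of higher members, against 25.4% and 13.6% over all genes. The 3 lower in anther and higher in panicle are 8.82% and 6.82%, against 5.88% and 7.53%. No test of these differences was made. Some of the 8 have a counterpart of alike profile among them, described below. Whether these are copies that share reads, and so a signal listed more than once, was not tested.

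Some of the 8 genes with opposite directions had a counterpart of alike profile on the other chromosome, singled out after the values were seen. Os11g0126900 (1233931 to 1236097) had 21.4 FPKM in knockdown anther and 0.982 FPKM in WT anther. In panicle it had 1.01 FPKM in the knockdown and 7.65 FPKM in WT panicle. Os12g0123700 (1139025 to 1141362) had 10.97 FPKM and 2.15 FPKM in knockdown and WT anther, and 0.857 FPKM and 5.67 FPKM in knockdown and WT panicle. Both were thus high in knockdown anther and in WT panicle and low in the other columns.

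Os11g0112900 had 4.84 FPKM in knockdown anther and 0.745 FPKM in WT anther, and Os12g0113700 had 4.07 FPKM and 0.127 FPKM. In panicle they had 0.0847 FPKM and 0.101 FPKM in the knockdown, against 18.8 FPKM and 13.8 FPKM in WT. Their profiles over the 4 columns were alike in order. Os11g0115375 had 422 FPKM in knockdown anther and 201 FPKM in WT anther, and Os12g0115150 had 275 FPKM and 186 FPKM; in panicle they had 20.5 FPKM and 9.83 FPKM in the knockdown, against 166 FPKM and 147 FPKM in WT. Os12g0115150 is not one of the 8, since its anther difference was 0.57, and both of these genes lie at loci of 2 gene names.

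None of these 3 sets of genes is a pair of the chain, which joins Os11g0126900 with Os12g0123800 instead, and whether they are copies was not tested. Os12g0123800 had 2.04 FPKM in knockdown anther, 1.42 FPKM in WT anther, 0 in knockdown panicle and 0.391 FPKM in WT panicle. Among members lower in both knockdown tissues, Os11g0132100 and Os12g0129100 were alike in the same way. Both were listed at 0 in knockdown panicle, against 1.10 FPKM and 2.72 FPKM in WT panicle.

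**Figure D5:**
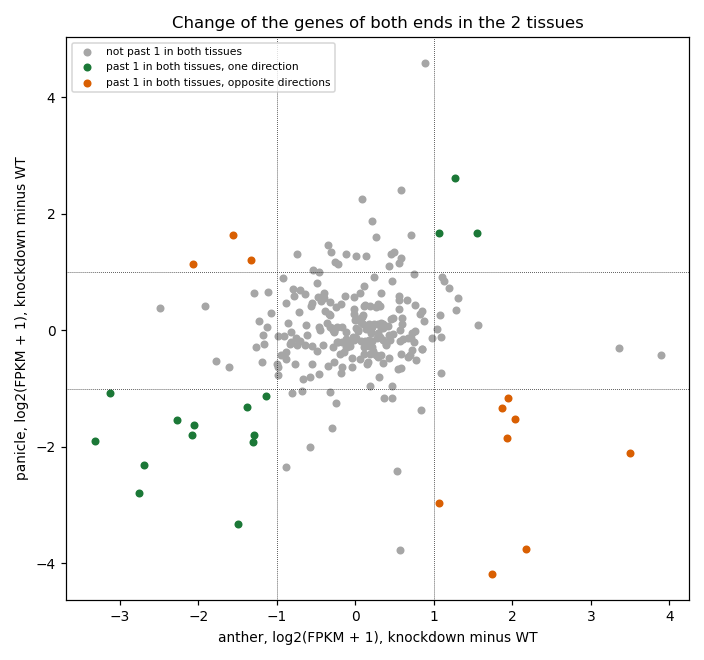
Knockdown minus WT difference in panicle against that in anther, in log2(FPKM + 1), for the 264 members compared in both tissues. The 11 members past 1 in opposite directions and the 15 past 1 in one direction are coloured; Os11g0126900, Os11g0112900 and Os12g0113700 lie farthest out where anther was higher and panicle lower.

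The genes on either side of the boundary were as follows. On chromosome 11 the last gene inside, Os11g0153300, had 2.47, 1.77, 10.8 and 6.58 FPKM in knockdown anther, WT anther, knockdown panicle and WT panicle, and the first outside, Os11g0153450, had 8.18, 23.0, 17.8 and 9.14 FPKM. On chromosome 12 the last inside, Os12g0150200, is described above, and the first outside, Os12g0151000, had 0.208, 3.08, 0.260 and 8.85 FPKM.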

How the data were processed

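Libraries were made from total RNA with a directional kit, per the labels' protocols. The values are FPKM, per the file headers, deposited by the authors as 1 column per group. The submitters' processing notes list Trimmomatic, HISAT2 and Cufflinks 2.2.1, with no role given. The genome build, the annotation and how replicates were combined are not given in the sources used here. Depth is therefore unknown.

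Rows sharing a name were summed, giving 30154 names from 43897 rows. Differences are of log2(FPKM + 1), which understates changes of low genes, and genes entered a comparison with 1 FPKM or more in either of its columns and were called at an absolute difference of at least 1. The planned limma fit needed replicate columns, so its stated fallback without a test was used. Positional pairs came from the collinear chain described in the report: weight 1, or 2 at a span ratio of 0.99, less 0.05 per kb of offset change up to 2. Limiting pairs to loci with 1 name, and the close pairs, were decided after the table was seen. Named genes were those with a symbol, the 4 largest differences per direction and tissue, the 3 most abundant members of each end, and the most abundant, most unequal and most differently changing pairs. Members and lists were chosen with earlier results of these data known. Of 638 single names, 1 (LTP110-A) matched the RefSeq gene table, which was used for names only. The counting and chaining steps (Python 3.11.15, pandas 2.3.3) were run on simulated data. This did not test how often the chain joins unrelated loci in these data.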

Additional observations from a re-analysis of the deposited data

Results flagged for a closer look

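A total of 11 members were past a log2(FPKM + 1) difference of 1 in opposite directions in the tissues. With 1 value per group, the difference between tissues was not tested for any of them, and no spread between replicates is known. Anther minus panicle, the knockdown differences were 5.93 apart in Os11g0112900, 5.60 in Os11g0126900, 4.03 in Os11g0115375, 3.55 in Os11g0147150 and 3.20 in Os11g0135000. On chromosome 12 they were 5.92 apart in Os12g0113700, 3.77 in Os12g0123700 and 3.11 in Os12g0147200. These 8 genes were higher in knockdown anther than in WT anther and lower in knockdown panicle than in WT panicle. The reverse held in Os11g0107600 (-3.20), Os11g0126250 (-3.22) and Os12g0132000 (-2.54). Os11g0107600 had 16.5 FPKM in knockdown anther and 50.6 FPKM in WT anther; in panicle it had 29.3 FPKM in the knockdown and 8.69 FPKM in WT panicle. Os12g0132000 had 8.30 and 22.4 FPKM in knockdown and WT anther, and 40.5 and 17.0 FPKM in knockdown and WT panicle. All 11 kept both directions past 1 after median centring and quantile normalization, and 9 did so with equal column totals, the exceptions being Os11g0107600 (-0.69 in anther) and Os12g0132000 (-0.50 in anther).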

How the results depend on the processing

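No paired analysis was possible because each group is given as 1 column with no replicate in it; the planned limma fit and leaving out each replicate were not run, for that reason. Of 198 alternative values for counts, shares and medians, 149 stayed near the main value in size, 48 moved and 1 reversed. Direction was followed for the medians of copy levels only, so a split of counts could turn unmarked. In anther, quantile normalization gave 32 higher and 26 lower against 25 and 34 as deposited, with both counts among the 149. The cause was not tested beyond what each setting itself changes. Of 150 values for named genes, 145 stayed and 5 dropped out under a mean of 5 FPKM. Calls under the alternative settings were counted for members only, so no share over all genes stands beside them. For members, a pseudocount of 0.1 gave 42 higher in knockdown anther. A mean of 5 FPKM gave 9 higher in anther, 11 higher and 24 lower in panicle, and 19 lower between WT tissues (anther minus panicle). Equal totals gave 93 higher and 12 lower in knockdown anther, and 23 higher and 98 lower between WT tissues. A threshold of 2 gave 5 and 9 in anther, 7 and 12 in panicle, and 14 and 18 between WT tissues. Loci with 1 name gave 22 lower in anther, 27 higher and 23 lower in panicle, and 30 higher between WT tissues. The share of higher among called members in anther was 42.4% as deposited, 45% median centred, 55.2% quantile normalized and 88.6% with equal totals; between WT tissues it was 46.2%, 19.0% with equal totals and 64.8% with a mean of 5 FPKM (35 higher), and in panicle 54.3% and 31.4% with that mean. For copy levels (knockdown anther, WT anther, knockdown panicle, WT panicle), no filter gave 29.5%, 29.5%, 31.8% and 36.4% of pairs past 1 and medians of -0.041, -0.092, -0.16 and -0.10. A mean of 5 FPKM gave anther medians of -0.49 and -0.99, and a threshold of 2 gave panicle shares of 30.8% and 37.0%. A span ratio of 0.99 gave medians of -0.13, 0.011 (the reversal), -0.27 and -0.15. Close pairs, added after seeing the data, gave anther medians of -0.45 and -1.34, and summing all names at a locus gave a knockdown panicle median of -0.36. For the gap between copies in the knockdown difference, no filter gave 15.9% of pairs past 1 and a median of 0.24 in anther, and a mean of 5 FPKM a median of 0.10 in panicle. A threshold of 2 gave 12.5% in anther and 5.26% in panicle, a span ratio of 0.99 gave 14.3% and 42.9%, a span ratio of 0.9 gave 13.6% in panicle, and close pairs gave 0% and 12.5% with a panicle median of 0.082. Unknown depth leaves low values without an error.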

Other observations

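Of the 15 members past 1 in one direction in both tissues, some were not described above. The 3 that were higher in both knockdown tissues lay on chromosome 12, and such genes were 12% of the members higher in anther, against 25.4% of all genes higher in anther. Os12g0114500 had 61.5 FPKM in knockdown anther and 20.3 FPKM in WT anther; in panicle it had 117 FPKM in the knockdown and 36.3 FPKM in WT panicle. Os12g0149000 had 3.13 and 0.721 FPKM in knockdown and WT anther. Os12g0105600 had 1.39 and 0.143 FPKM there, and 6.75 and 1.44 FPKM in knockdown and WT panicle. Of the 12 lower in both, 6 lay on each chromosome. Os12g0105850 had 3.17 and 16.7 FPKM in knockdown and WT anther, and 3.04 and 13.1 FPKM in knockdown and WT panicle, so its level in each genotype was alike in the tissues. Os12g0106500 had 2.2003 and 12.4 FPKM in knockdown and WT anther and 2.02 and 8.34 FPKM in knockdown and WT panicle, with the WT level higher in anther. Of these 15, 13 stayed so called after quantile normalization and 10 with equal totals.

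The kinase gene TOR, on chromosome 5, had 29.4 FPKM in knockdown anther, 17.4 FPKM in WT anther, 22.1 FPKM in knockdown panicle and 32.9 FPKM in WT panicle. Both RAPTOR genes, which encode its partner subunit, were listed at 0.0523 FPKM or less in the same columns.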
